A study of Mus musculus with 8 samples.

Results

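The SOCS family of feedback inhibitors is described here in mouse peritoneal macrophages given interleukin-4 (IL-4). Its members were taken as every probe that the platform annotation assigns to Cish or to Socs1 through Socs7, which gave 10 of the 25697 probes of the array and 8 of its 16593 named genes. Socs6 and Socs7 had 2 probes each and the other genes 1. A probe was tested if both duplicates of some group exceeded background, which 14458 probes met, 7 of them (of 7 genes) SOCS family probes. The second Socs6 probe and both Socs7 probes did not meet this requirement.

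The study profiled macrophages of C57BL/6 mice on Illumina Mouse Ref-8 bead arrays, 8 arrays in 4 groups of 2. The groups were wild-type (WT) cells left unstimulated, WT cells with IL-4 for 6 h, and the same 2 conditions in cells labelled Fcg-chain KO (KO). All 4 groups came from naive mice and adhered overnight in medium with 10% serum and 15% L929 supernatant, which supplies the macrophage growth factor M-CSF, before floating cells were thrown away. The labels state no animal for any array, so p-values reflect only how far duplicate arrays differ, possibly for technical reasons alone, and the number of arrays limits the precision.

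SOCS proteins are intracellular brakes on cytokine receptors. A receptor such as that for IL-4 activates JAK kinases, which phosphorylate STAT transcription factors, and STATs induce SOCS genes, whose products then dampen the same or other receptors. Each member carries an SH2 domain, which binds phosphorylated tyrosine, and a SOCS box, which recruits elongins and a cullin ubiquitin ligase. IL-4 signals mainly through STAT6 in macrophages, whereas Cish and Socs2 are known best as STAT5 targets and Socs3 as a STAT3 target.

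STAT dimers bind palindromes of the form TTCNNNGAA, and STAT6 prefers the form with 1 more base between the arms, TTCNNNNGAA. Both forms read the same on either strand. Promoter windows of 300 bases, 250 before to 50 after the annotated start, were matched by symbol for 4 of the 8 genes (Cish, Socs1, Socs3 and Socs4; RefSeq, GRCm38.p6). The 3 that belong to genes raised by IL-4 are printed, with matches to either form in capitals.
Cish promoter, chr9:107296409-107296708 (+ strand): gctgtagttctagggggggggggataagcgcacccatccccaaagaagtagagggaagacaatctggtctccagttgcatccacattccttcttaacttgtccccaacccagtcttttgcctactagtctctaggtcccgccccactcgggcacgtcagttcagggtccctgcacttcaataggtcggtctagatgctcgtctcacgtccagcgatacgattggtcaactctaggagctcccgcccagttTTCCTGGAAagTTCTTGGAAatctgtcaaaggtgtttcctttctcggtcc
Socs1 promoter, chr16:10785487-10785786 (- strand): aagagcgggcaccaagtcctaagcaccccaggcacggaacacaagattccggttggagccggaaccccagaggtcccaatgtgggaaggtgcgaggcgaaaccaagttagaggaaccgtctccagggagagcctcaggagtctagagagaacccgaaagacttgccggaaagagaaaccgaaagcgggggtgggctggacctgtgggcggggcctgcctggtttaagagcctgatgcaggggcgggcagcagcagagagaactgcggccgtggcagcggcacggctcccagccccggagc
Socs3 promoter, chr11:117969317-117969616 (- strand): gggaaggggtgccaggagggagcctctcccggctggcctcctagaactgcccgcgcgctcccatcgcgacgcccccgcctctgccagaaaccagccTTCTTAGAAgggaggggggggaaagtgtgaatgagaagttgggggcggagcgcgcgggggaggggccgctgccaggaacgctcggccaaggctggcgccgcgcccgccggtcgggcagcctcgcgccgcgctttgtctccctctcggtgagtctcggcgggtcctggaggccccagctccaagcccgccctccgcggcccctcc
The Cish window holds 2 matches to TTCNNNGAA that do not overlap, 1 beginning at the annotated start itself and 1 beginning 11 bases after it. The Socs3 window holds 1 such match, which begins 154 bases before the start. The Socs1 and Socs4 windows hold no match to either form, and none of the 4 windows holds TTCNNNNGAA. Among 32851 windows of this length, 8.3% held TTCNNNGAA at least once, 0.457% held it at least 2 times, and 6.95% held TTCNNNNGAA. A match describes these letters and not a bound site.

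Across all tested probes, duplicates correlated at r = 0.994 and arrays of different groups at 0.969 to 0.988, probes not being independent replicates. Fcer1g, read as the gene of the missing chain, lay between 9915 and 12988 intensity units on the 4 WT arrays and below background on the 4 KO arrays (85.7 to 91.8). Macrophage markers were present, 6 of 6 measured being above background on both arrays of every group. T cell markers (5 of 5), B cell markers (4 of 5) and mast cell markers (3 of 4) were also above background on both arrays of every group. In bulk RNA, fewer cells of a type and less RNA per cell cannot be told apart.

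IL-4 raised 5 of the 7 tested members in WT (Cish, Socs1, Socs2, Socs3 and Socs5), and the same 5 in KO, with 0 lowered in either. Of all tested probes, 15.1% passed in WT (7.48% higher, 7.66% lower), 17.5% in KO (8.6% higher, 8.94% lower), and 5.42% were higher in both (limma, Benjamini-Hochberg adjusted p under 0.05). The median log2 change of the 7 probes was 0.80 in WT and 0.95 in KO, against -0.01 over all tested probes in each. Arrays with and without IL-4 did not overlap for 54.4% of all tested probes in WT and 57.1% in KO. Between genotypes this share was 44.2% unstimulated and 46.8% with IL-4. These shares are the background for the orders of arrays given below for each member. Sizes ran from 16.9-fold for Cish to 1.37-fold for Socs5 in WT. Fold changes are on the scale of background-corrected intensity plus an offset of 16, and for dim probes they shrink without that correction.

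Cish encodes CIS, a member that binds phosphorylated cytokine receptors and restrains STAT5 signalling. Its intensity was 125 and 126 on the unstimulated WT arrays and 1043 and 1117 with IL-4. In KO it was 128 and 123 unstimulated and 856 and 787 with IL-4. The 4 unstimulated arrays lay close together and all 4 IL-4 arrays far above them, with both WT arrays above both KO arrays under IL-4. The rise was 16.9-fold in WT (log2 4.08 ± 0.11 SE, limma adjusted p = 3.5e-11) and 12.5-fold in KO (3.65 ± 0.11, adjusted p = 9.2e-11). Without background correction it was 8.60-fold in WT and 6.53-fold in KO. Among 14458 probes only 3 rose more in WT and 7 in KO.

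Socs2, best known as a brake on growth hormone signalling, read 293 and 282 in unstimulated WT and 698 and 693 with IL-4. In KO it read 217 and 195 unstimulated and 719 and 548 with IL-4. The stimulated arrays were above the unstimulated ones in both genotypes, and the unstimulated KO arrays were the lowest of all. It rose 2.83-fold in WT (log2 1.50 ± 0.14 SE, limma adjusted p = 8.3e-06) and 4.02-fold in KO (2.01 ± 0.14, adjusted p = 4.3e-07).

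Socs1, which inhibits JAK kinases directly and restrains interferon and IL-4 signalling, was barely above background before stimulation. It read 93.7 and 96.0 in unstimulated WT, and 92.9 and 96.7 in unstimulated KO, where 1 of 2 arrays exceeded the background threshold of 93.1 to 93.3. With IL-4 it read 140.4 and 141 in WT and 139 and 149 in KO. The IL-4 arrays stood apart from the others and the genotypes overlapped in each condition. The rise was 2.56-fold in WT (log2 1.35 ± 0.13 SE, limma adjusted p = 1.2e-05) and 2.68-fold in KO (1.42 ± 0.13, adjusted p = 6.8e-06). Starting so near background, it was 1.48-fold and 1.52-fold without background correction.

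Socs3, the brake on gp130 receptors such as that for IL-6, was lower in KO than in WT in both conditions. It read 709 and 719 in unstimulated WT and 974 and 1469 with IL-4, against 303 and 424 in unstimulated KO and 611 and 648 with IL-4. Both IL-4 arrays were above both unstimulated arrays within each genotype, but the IL-4 arrays of KO were below even the unstimulated arrays of WT. The IL-4 response was 1.74-fold in WT (log2 0.80 ± 0.19 SE, limma adjusted p = 0.012) and 1.93-fold in KO (0.95 ± 0.19, adjusted p = 0.0036). The WT call rested on single arrays, ending without WT_unstim replicate 1 (adjusted p = 0.0799), without WT_unstim replicate 2 (0.0655), without WT_IL4 replicate 2 (log2 0.49, 0.15) and with robust eBayes (0.0668). The KO call ended without KO_unstim replicate 1 (log2 0.65, adjusted p = 0.0531).

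Socs5, which is known to act on the epidermal growth factor receptor and has been linked to the IL-4 receptor in mouse T helper cells, rose least. It read 165 and 150.1 in unstimulated WT and 192 and 191 with IL-4, and 174 and 153 in unstimulated KO and 219 and 207 with IL-4. IL-4 arrays were above unstimulated ones in both genotypes. The rise was 1.37-fold in WT (log2 0.46 ± 0.14 SE, limma adjusted p = 0.036) and 1.51-fold in KO (0.60 ± 0.14, adjusted p = 0.0077). The WT call ended without WT_unstim replicate 2 (adjusted p = 0.216), without WT_IL4 replicate 1 (0.134) and without WT_IL4 replicate 2 (0.13), and the KO call without KO_unstim replicate 2 (0.0918) and without KO_IL4 replicate 1 (0.0586).

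Socs4, a close relative of Socs5, and Socs6, an adaptor in receptor tyrosine kinase signalling, did not pass in either genotype. Socs4 read between 149 and 177 over the 8 arrays, with log2 differences of 0.20 in WT (95% interval -0.09 to 0.49) and 0.17 in KO (-0.12 to 0.46). The brighter Socs6 probe read between 113 and 129.8, with differences of 0.13 in WT (-0.20 to 0.46) and 0.03 in KO (-0.30 to 0.35). These intervals leave room for small responses of either sign. The dimmer Socs6 probe read between 88.5 and 94.5, and the 2 probes of Socs7, a relative of Socs6, read 87.8 to 98.6 and 86.2 to 93.9. All 3 lay around the background threshold in all groups and had no group with both arrays above it, so no fold is given. Their levels were not detectable apart from background with these arrays.

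**Figure D1:**
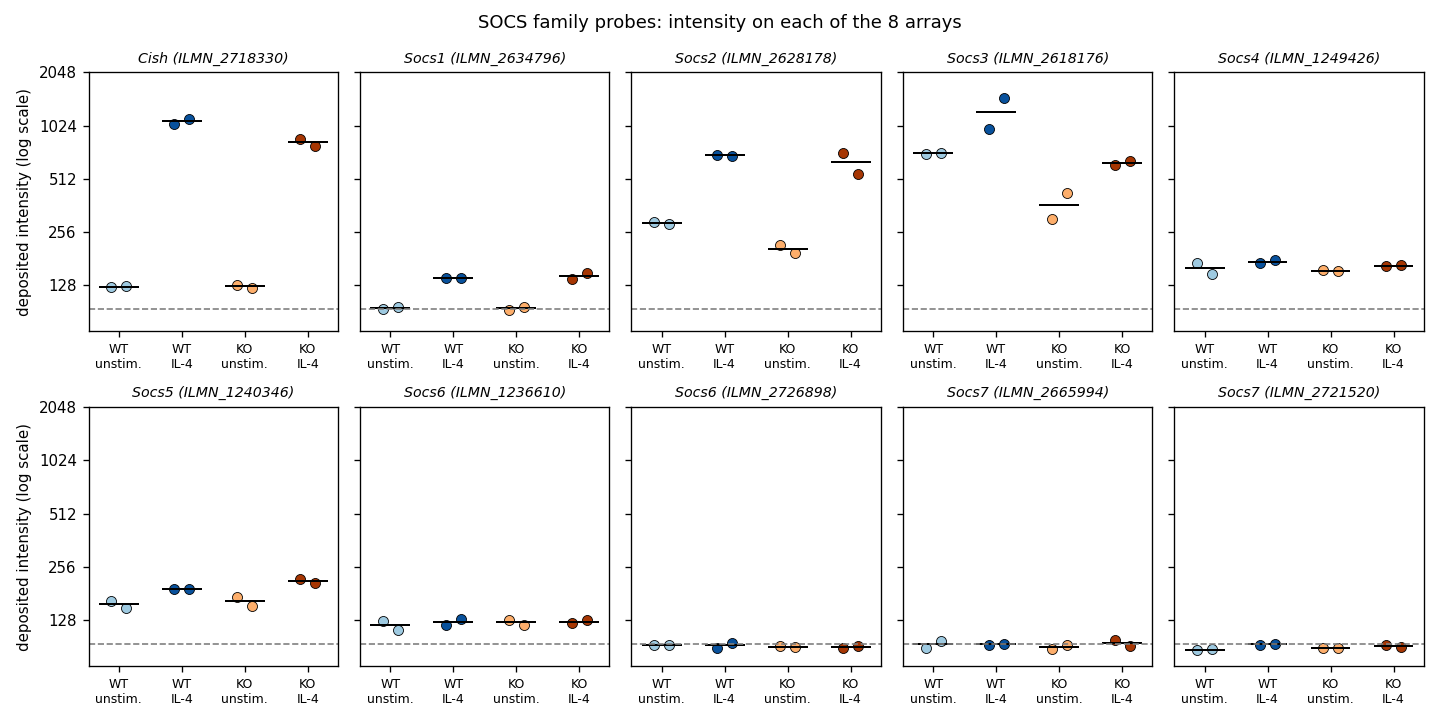
Deposited intensity (log scale) of the 10 SOCS family probes on each array; points are the 2 arrays of a group, bars their mean, and the dashed line the background threshold of 93.3. Cish runs from about 125 without IL-4 to between 787 and 1117 with it, while the second Socs6 probe and both Socs7 probes stay at the threshold.

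The order of the group means differed between members. Cish had WT with IL-4 highest, then KO with IL-4, and the 2 unstimulated groups level at 126 ± 1.30 in WT and 126 ± 3.67 in KO (SD, n = 2). Socs2 had the 2 IL-4 groups at the top, 695 ± 3.58 in WT and 633 ± 121 in KO, which did not pass a test of their difference. Socs3 ran from WT with IL-4 (1221 ± 350.1) through unstimulated WT (714 ± 6.71) and KO with IL-4 (630 ± 26.5) to unstimulated KO (364 ± 85.9). Socs1 had both IL-4 groups above both unstimulated groups. Socs5 did too, and both of its KO arrays with IL-4 lay above both WT arrays with IL-4, a difference that did not pass the test. With IL-4, the genotypes did not overlap for 46.8% of all tested probes. On the scale the study states, relative to the mean of unstimulated WT, Cish stood at 8.61 in WT with IL-4 and 6.55 in KO with IL-4, as ratios of intensities with background included.

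Socs3 signal was lower in KO than in WT in both conditions, and Socs2 signal was lower before stimulation. Unstimulated, 2 of 7 members were lower in KO and 0 higher, where 4.64% of all tested probes passed (2.47% lower, 2.17% higher). Socs3 was 2.22-fold lower (log2 -1.15 ± 0.19 SE, limma adjusted p = 0.0026), a call that held with any single array left out (log2 -1.45 to -0.85, highest adjusted p = 0.0379). Socs2 was 1.59-fold lower (-0.67 ± 0.14, adjusted p = 0.011), a call that ended without WT_unstim replicate 1 (adjusted p = 0.0899), without WT_unstim replicate 2 (0.0632) and without KO_unstim replicate 2 (0.129). The other 5 members did not pass, with intervals for Cish of -0.23 to 0.25 and for Socs1 of -0.29 to 0.28.

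With IL-4, 2 of 7 members were lower in KO and 0 higher, where 4.53% of all tested probes passed (2.58% lower, 1.95% higher). Socs3 was 2.00-fold lower (log2 -1.002 ± 0.19 SE, limma adjusted p = 0.0071), which ended without WT_IL4 replicate 2 (log2 -0.69, adjusted p = 0.0996) and with robust eBayes (0.0687). Cish was 1.34-fold lower (-0.42 ± 0.11, adjusted p = 0.046). This value stood just under the threshold. It passed in 0 of the 8 fits that left out 1 array (log2 -0.49 to -0.36, adjusted p = 0.0502 to 0.327), and did not pass without a filter on dim probes (0.0673) or a variance trend (0.0641). Socs2 no longer passed, at -0.17 (95% interval -0.46 to 0.13). Socs5 lay at 0.23 (-0.07 to 0.52).

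Marker genes of macrophages and of other cell types also differed between these groups. Of 6 tested macrophage markers, 2 were lower with IL-4 in each genotype. Against WT, 1 was higher and 1 lower in unstimulated KO, and 2 were higher and 1 lower in KO with IL-4. Summed neutrophil markers read 2320 to 2581 in unstimulated WT and 1677 to 1804 in unstimulated KO, then 1299 to 1456 and 1196 to 1420 with IL-4, and 2 of 4 tested were lower in unstimulated KO. IL-4 lowered 3 of 4 in WT and 1 of 4 in KO, and with IL-4 1 of 4 was lower in KO than in WT. Markers of large peritoneal macrophages summed to 4223 to 4288 in unstimulated WT and 9133 to 9872 in unstimulated KO, and to 4392 to 4439 and 7535 to 8296 with IL-4. Of 4 tested, 2 were higher in KO in each condition. IL-4 raised 1 of the 4 in WT, and raised 1 and lowered 1 in KO. Summed T cell markers read 692 to 810 in unstimulated WT and 797 to 931 in unstimulated KO, then 599 to 701 and 800.1 to 908 with IL-4. Of 5 tested, 2 were higher in KO with IL-4 and 2 were lower with IL-4 in WT. Of 4 tested B cell markers, 1 was lower with IL-4 in each genotype. Over all tested probes, 2.47% were lower and 2.17% higher in unstimulated KO, and 2.58% and 1.95% with IL-4. IL-4 lowered 7.66% of all tested probes in WT and 8.94% in KO, and raised 7.48% and 8.6%. Of the 3 eosinophil markers none was above background on both arrays of any group. Ms4a2, a defining mast cell gene, was below background on all 8 arrays. The other 3 measured mast cell markers were above it on both arrays of every group. Summed mast cell markers read 986 to 1243 in unstimulated WT and 760 to 926 in unstimulated KO. With IL-4 they read 898 to 1130 in WT and 737 to 913 in KO. Of 3 tested, 0 passed in any of these comparisons. The part of cell makeup in the differences of the SOCS members was not tested.

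**Figure D2:**
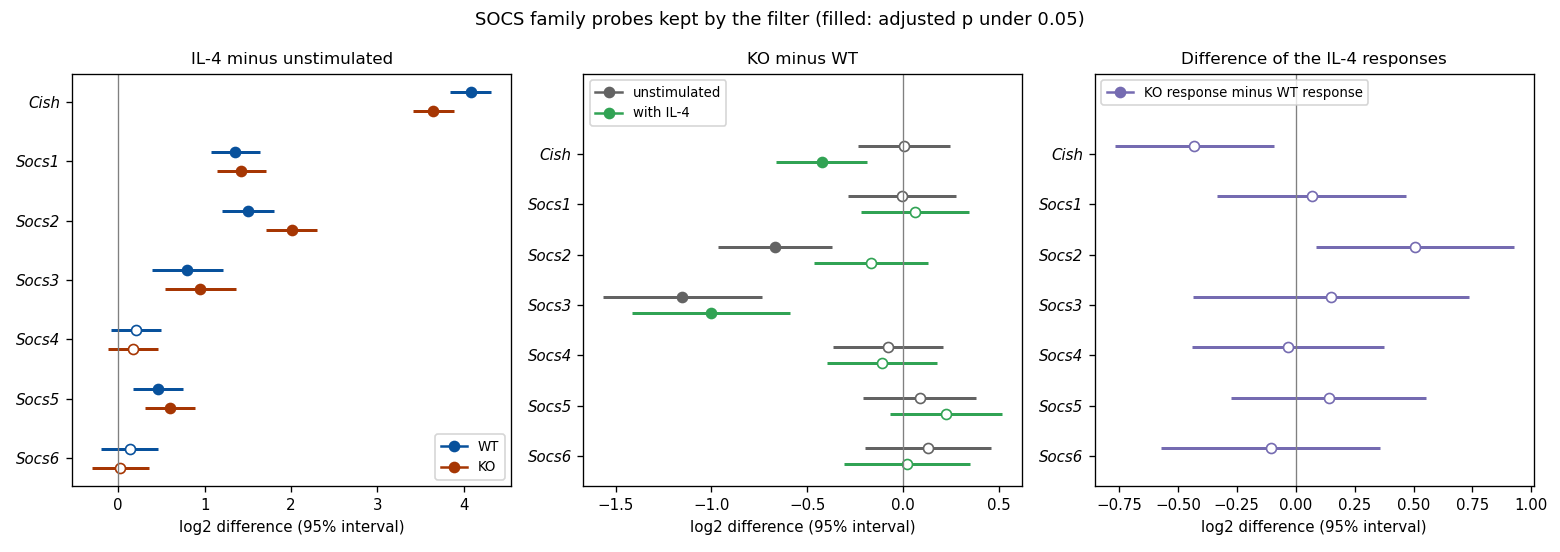
Log2 differences of the 7 tested SOCS family probes with 95% intervals from limma; left, IL-4 minus unstimulated in WT and KO, middle, KO minus WT in each condition, right, the KO response minus the WT response. Filled points passed at an adjusted p under 0.05: 5 members in each genotype on the left, Socs3 in both conditions in the middle with Socs2 unstimulated and Cish under IL-4, and none on the right.

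A test of whether the response itself differed between genotypes called 0 of 7 members, where 0.104% of all tested probes were called, 0.0346% with a larger and 0.0692% with a smaller KO response (limma, 2 members at an unadjusted p under 0.05). Those were Cish, whose response was smaller in KO (log2 -0.43, 95% interval -0.77 to -0.09, adjusted p = 0.685), and Socs2, whose response was larger (0.50, 0.08 to 0.92, adjusted p = 0.69). For Socs1 the interval was -0.33 to 0.47 and for Socs3 -0.44 to 0.73. Differences of up to these bounds remain compatible with the arrays. The genotype comparison and the 2 responses share arrays: Socs2 was lower in unstimulated KO, and the same 2 arrays are the baseline of its larger KO response.

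**Figure D3:**
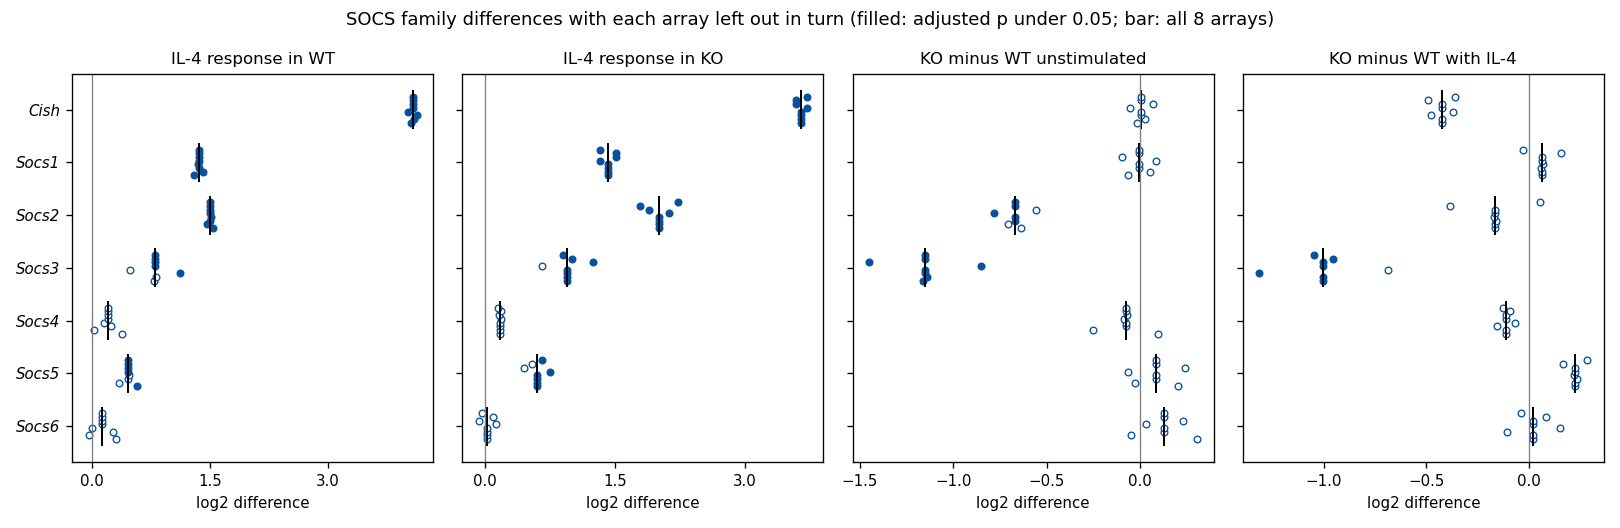
Log2 difference of each tested member (horizontal axis) in 4 comparisons, with 1 of the 8 arrays left out in turn (points; filled where the adjusted p stays under 0.05) and with all arrays (bars). Cish, Socs1 and Socs2 stay filled in both IL-4 responses, whereas Socs3 and Socs5 lose the call without single arrays and Cish under IL-4 between genotypes has no filled point.

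Of 24 tested cytokine receptor genes that use JAK kinases, 5 rose and 2 fell in WT, and 4 rose and 2 fell in KO. Over all tested probes, 7.48% rose and 7.66% fell in WT, and 8.6% rose and 8.94% fell in KO, which is the background for each list that follows. The difference of the responses between genotypes passed for 0 genes of this list and of each later list except the STAT6 targets. Of all tested probes 0.104% passed that test. A call in 1 genotype alone is therefore not a shown difference between genotypes. Il6st, which encodes gp130, the receptor chain that Socs3 acts on, rose 3.32-fold in WT (limma adjusted p = 6.1e-06) and 3.59-fold in KO (adjusted p = 2.6e-06). Csf3r, the receptor for G-CSF and another Socs3 target, rose 1.84-fold in WT. Csf2rb, the shared chain of the GM-CSF, IL-3 and IL-5 receptors, rose 2.43-fold in KO and 1.54-fold in WT. Csf2rb2 rose 2.22-fold in KO. Il13ra1, a chain of the receptor for IL-4 and IL-13, fell 1.84-fold in WT (limma adjusted p = 0.0053). Il10ra fell 1.42-fold in WT and 1.67-fold in KO. It was also lower in KO than in WT, 1.46-fold unstimulated and 1.73-fold with IL-4. With IL-4, Il6st was 1.54-fold higher in KO (limma adjusted p = 0.033). Between genotypes, 1 of the 24 was lower and 0 higher in unstimulated KO, and 4 were lower and 1 higher with IL-4. Over all tested probes, 2.47% were lower and 2.17% higher in unstimulated KO, and 2.58% and 1.95% with IL-4.

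Of the 4 JAK kinases, Jak2 rose 1.68-fold in WT and 1.86-fold in KO (limma adjusted p = 0.00028 and 5.1e-05), and Tyk2 fell 1.38-fold in KO. Among 5 tested STAT genes, 1 passed in any of the comparisons, Stat2, which fell 1.53-fold in WT. Stat6 itself had a log2 difference of -0.17 ± 0.13 in WT and -0.30 ± 0.13 in KO. Among 12 tested ligands 0 passed in WT (limma, 3 at an unadjusted p under 0.05) and 1 fell in KO, the IL-12 subunit gene Il12a.

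Other brakes on the pathway were counted too. Of 12 tested phosphatases, PIAS proteins and other inhibitors, 1 rose and 3 fell in WT, and 2 fell in KO. Ptpn6, the phosphatase SHP-1, fell 1.47-fold in WT and 1.49-fold in KO, and Pias3, an inhibitor of STAT3, fell 1.39- and 1.50-fold. The ubiquitin ligase gene Cbl rose 1.42-fold in WT. Usp18, a brake on the type I interferon receptor, was higher in KO under IL-4 (log2 0.71 ± 0.17 SE, limma adjusted p = 0.03). Of the 6 tested partners of the SOCS box, 0 passed in WT (limma, 1 at an unadjusted p under 0.05) and Elob, elongin B, rose 1.42-fold in KO. Of 15 tested genes of other proteins with a SOCS box, 0 passed in WT (2 at an unadjusted p under 0.05) and 2 fell in KO, Rab40c and Spsb4.

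Known targets of the STATs were counted next. Of 15 tested genes known as STAT6 targets, 13 rose in each genotype, with medians of 2.09 in WT and 1.73 in KO. Chil3, a chitinase-like protein, led them with 87.8-fold in WT and 115-fold in KO. Of these 15, 3 were lower and 0 higher in unstimulated KO, and 1 was lower and 1 higher with IL-4. The response of 1 was larger in KO, where 0.0346% of all tested probes had a larger one. Of 12 genes known as STAT5 targets other than the SOCS members, 0 passed in WT (limma, 3 at an unadjusted p under 0.05). In KO 1 passed, the cyclin gene Ccnd2 (1.40-fold higher). Between genotypes, 1 of the 12 was higher and 0 lower in unstimulated KO, and 0 passed with IL-4. Of 11 STAT3 targets, 2 rose and 2 fell in each genotype. Nfil3, a transcription factor, rose 4.73-fold in WT and 4.33-fold in KO, and Fos fell 2.20- and 2.33-fold. Between unstimulated genotypes, 5 of these 11 were lower in KO and 0 higher, where 2.47% of all tested probes were lower, among them Fos (1.91-fold), Bcl3 (1.70-fold), Il1rn (1.82-fold) and Junb (1.44-fold). With IL-4, Il1rn (2.73-fold), Fos (2.02-fold) and Junb (1.51-fold) were lower in KO, 3 of 11 where 2.58% of all tested probes were lower. Whether these genes and Socs3 share a cause was not tested. The median of the list in unstimulated cells was -0.28, against 0.01 over all tested probes.

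**Figure D4:**
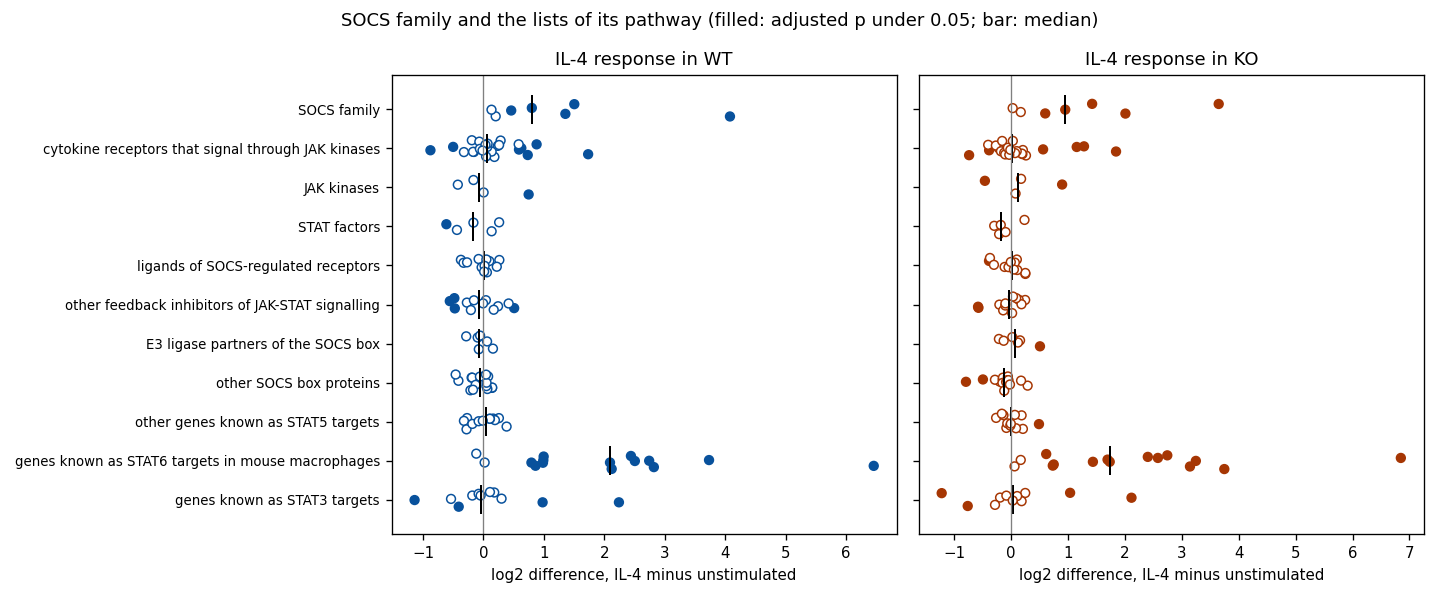
Log2 difference between IL-4 and unstimulated arrays for each tested gene (points; filled where the adjusted p is under 0.05) in the SOCS family and 10 lists of its pathway, in WT (left) and KO (right); bars are medians. The SOCS family (medians 0.80 and 0.95) and the STAT6 targets (2.09 and 1.73) lie to the right of 0, and the other medians lie near it.

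For each tested member the 3 probes of most similar profile over the 8 arrays were taken from named probes above background on all arrays (10436 or 10437 candidates, Pearson r of log2 values). Nearest to Cish were Chil3 (r = 0.998), the adhesion gene Cdh1 (0.997) and Cfap206 (0.997). Nearest to Socs1 were Bzw2 (0.997), the growth factor gene Hbegf (0.996) and Ube2e2 (0.995), and nearest to Socs2 the transcription factor gene Egr2 (0.995), Atic (0.991) and Mettl1 (0.99). Socs3 had Ccdc86 (0.988), the coagulation factor gene F10 (0.975) and the cell cycle inhibitor gene Cdkn1a (0.972), and Socs5 had Eci1 (0.986), Naa15 (0.982) and Fkbp5 (0.981). For Socs4 the highest was Nup98 (0.971) and for Socs6 Rps14 (0.924). These correlations describe 8 arrays in 4 groups, so that genes which differ with IL-4 share that difference.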

How the data were processed

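The authors deposited 1 linear, normalized intensity per probe and array, made with GenomeStudio per the submitters' processing notes, whose version and settings are not given in the sources used here. The sorted values of the 8 columns differ by at most 0.57 intensity units and start at 78.4, so the table is read as quantile-normalized without background subtraction. The non-normalized table was not used, because none of its 16 value columns (8 of them signals) carries a heading that matches a sample label. Groups come from the sample titles.

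Here normexp (saddle estimation, offset of 16) removed background from the deposited intensities before the log2 step. A probe counted as above background when it lay more than 1.645 standard deviations, taken below the mode, over the mode of that array's dim values (93.1 to 93.3 units, 54.2% to 54.9% of probes). A probe was kept if both duplicates of some group passed this, which left 14458, each tested on its own. A model of 4 group means was fitted with limma 3.58.1 in R 4.3.3 (variance trend, 4 residual and 9.44 prior degrees of freedom), with Benjamini-Hochberg adjustment over all probes kept and a threshold of 0.05. With 2 arrays against 2, the smallest exact permutation p is 0.333. The same script was tested on simulated data, independent noise with known changes placed only in WT with IL-4. Only the IL-4 responses were scored there, so the genotype comparisons were not tested in this way.

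Of 25697 probes 23978 carry 1 gene symbol, 0 several, and 1719 are unnamed here. A gene of a list is its brightest tested probe. From each list up to 4 genes with the lowest adjusted p per comparison could be named; Stat6 was named in addition, after its values were seen. The members, lists and tests were chosen with earlier results of these data known. Alternatives covered the background correction, offset, normalization, filter, probe choice, variance model, samples fitted, the replicate number as a block, and each array left out. Figures were drawn with matplotlib 3.10.9.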

Additional observations from a re-analysis of the deposited data

How the results depend on the processing

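Over the 7 tested members and 5 comparisons, 333 of 338 values under other settings kept their direction and their side of the threshold. The exceptions were Cish between genotypes under IL-4 (adjusted p = 0.0673 without a filter and 0.0641 without a variance trend), Socs3 with robust eBayes (0.0668 for IL-4 in WT, 0.0687 between genotypes under IL-4), and Cish between unstimulated genotypes, which was -0.0075 with cyclic loess against 0.0059 as reported. The count of members lower in KO under IL-4 was therefore 1 instead of 2 without a filter, without a variance trend and with robust eBayes. The count of probes whose response differed between genotypes was 24 without background correction, 24 without a filter and 7 with probes above background on all 8 arrays, against 15. Socs1 was not tested under that last filter.

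With 1 array left out, its group keeps a lone array that is assumed to vary like the other groups. In these fits, 235 of 280 values were unchanged in direction and call, 21 lost the call and 24 changed sign, the last all among values that had not passed. The count of members ranged from 3 to 5 for IL-4 in WT, 4 to 5 in KO, 1 to 2 between unstimulated genotypes and 0 to 1 under IL-4. The count of all probes ranged from 1309 to 2144, 1439 to 2499, 372 to 664 and 323 to 631 in the same order, and from 5 to 14 for the difference of the responses. Log2 values that changed sign ranged, for IL-4 in WT, from -0.0443 to 0.309 (Socs6), and for IL-4 in KO from -0.0734 to 0.125 (Socs6). Between unstimulated genotypes they ranged from -0.0483 to 0.305 (Socs6), -0.0665 to 0.24 (Socs5), -0.251 to 0.0961 (Socs4), -0.0988 to 0.087 (Socs1) and -0.056 to 0.0678 (Cish). Under IL-4 they ranged from -0.108 to 0.152 (Socs6), -0.384 to 0.0529 (Socs2) and -0.0307 to 0.155 (Socs1). For the difference of the responses they ranged from -0.283 to 0.0703 (Socs6), -0.0139 to 0.293 (Socs5), -0.207 to 0.14 (Socs4), -0.164 to 0.464 (Socs3) and -0.0251 to 0.161 (Socs1).

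With the replicate block, no member's call changed and the counts of probes were 2302 and 2610 for IL-4 in WT and KO, 740 and 732 between genotypes, and 19 for the difference of the responses. Deviations of same-numbered arrays correlated between -0.0956 and 0.209 over the 6 pairs of groups. The highest values were those within WT (0.136) and within KO (0.209). The labels do not say what a replicate number shares, so the numbers were not taken to pair arrays. A pairing within each genotype was not fitted. Signal over background limits Socs1 before stimulation and the second Socs6 and both Socs7 probes. The causes of these changes were not tested.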
